A study of Rattus norvegicus with 9 samples.

Results

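The genes described here are markers of mesothelium, read across pulmonary and mesenteric arteries of adult rats. The set named 7 gene symbols, Msln, Upk3b, Lrrn4, Upk1b, Wt1, Calb2 and Krt19, and every row of the count tables with such a symbol was taken. Of these symbols 6 had a row among the 30452 features, and Krt19 was not analysed here. Dams received a standard diet in pregnancy with either sucrose-sweetened (20%) or plain drinking water, and their offspring were 3 to 5 months old when the arteries were dissected under a microscope. The groups were PAC, pulmonary artery of offspring of plain-water dams (replicates 1, 2 and 4), MAH, mesenteric artery of offspring of sucrose-water dams (replicates 1, 2 and 3), and MAC, mesenteric artery of offspring of plain-water dams (replicates 1, 2 and 3). All 3 groups carried no genetic change or other agent that the labels name, and strain, sex and pooling of animals were not given in the sources used here. Pulmonary arteries of high-sucrose offspring were not analysed here. The labels do not tell whether replicates are different animals, so a p-value here covers only variation among these libraries, and that variation may be technical.

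Mesothelium is the single sheet of flat cells that lines the pleural, pericardial and peritoneal cavities and covers the organs inside them. The mesentery, which carries the mesenteric arteries to the gut, is covered by it, and so are the lung and the vessels near the heart. Its cells have keratins like an epithelium but arise from mesoderm, and they secrete the fluid that lets organs slide. Msln encodes mesothelin, a surface glycoprotein that binds the mucin MUC16. Upk3b and Upk1b encode uroplakins, membrane proteins first described in the lining of the bladder. Lrrn4 encodes a membrane protein with leucine-rich repeats. Wt1 encodes a zinc finger transcription factor of developing mesothelium and kidney, Calb2 the calcium-binding protein calretinin, and Krt19 a keratin.

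The promoters of 4 of the 7 genes were found in RefSeq tables of build GRCr8, which is not the build of the count tables. Upk3b, Lrrn4 and Upk1b are shown because all 3 were present in each pulmonary library and highest in the same one, as described below. Each line runs 5′ to 3′ on the strand of the gene, with 250 bases before and 50 bases after the annotated start, in lower case, and capitals mark GGAATG or its reverse complement CATTCC, the motif of TEAD transcription factors. The windows are chr12:26274191-26274490 on the minus strand for Upk3b, chr3:140603937-140604236 on the minus strand for Lrrn4 and chr11:75459131-75459430 on the plus strand for Upk1b.
Upk3b: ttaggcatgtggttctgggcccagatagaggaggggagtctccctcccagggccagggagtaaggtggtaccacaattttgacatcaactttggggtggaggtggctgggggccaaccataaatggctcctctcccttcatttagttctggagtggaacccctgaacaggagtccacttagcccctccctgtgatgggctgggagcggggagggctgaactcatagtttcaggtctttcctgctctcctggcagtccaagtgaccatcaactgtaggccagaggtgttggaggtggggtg
Lrrn4: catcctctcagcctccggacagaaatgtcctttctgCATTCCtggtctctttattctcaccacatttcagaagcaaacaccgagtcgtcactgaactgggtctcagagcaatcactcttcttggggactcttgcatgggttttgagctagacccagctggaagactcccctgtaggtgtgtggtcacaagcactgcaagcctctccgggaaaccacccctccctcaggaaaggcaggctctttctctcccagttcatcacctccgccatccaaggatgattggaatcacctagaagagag
Upk1b: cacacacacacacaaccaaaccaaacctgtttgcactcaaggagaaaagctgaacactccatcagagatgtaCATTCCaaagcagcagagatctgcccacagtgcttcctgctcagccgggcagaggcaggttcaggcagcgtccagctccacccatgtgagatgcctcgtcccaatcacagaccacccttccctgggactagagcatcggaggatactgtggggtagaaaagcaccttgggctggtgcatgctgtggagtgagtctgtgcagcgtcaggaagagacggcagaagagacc
The TEAD motif was found once in Lrrn4, its first base at position -214 from the start, and once in Upk1b, at -178. Of 33469 promoters of the same length, 14.2% held it on either strand. The motifs GCGGGGGCG (2.73% of all promoters) and GTGGGAG (8.87%), of the type bound by WT1 and EGR proteins, and the TATA box motif TATAAA (14.2%) had no match in these 3 windows on either strand. A match is a description of the letters and not a measured site.

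Total counts per library ran from 10388231 to 15420546, so that 1 count was worth 0.0648 to 0.0963 CPM (counts divided by the library total and multiplied by 1000000). Smooth muscle and endothelial markers were present in all 9 libraries, and the pulmonary libraries differed in markers of other tissues. Markers of lung epithelium summed to 19.9, 111 and 823 CPM in PAC replicates 1, 2 and 4, against 18.8 to 41.7 CPM in the 6 mesenteric libraries. Cardiac muscle markers summed to 1168, 21036 and 2066 CPM in PAC replicates 1, 2 and 4, against 35.5 to 112 CPM. In replicate 1, Actc1 alone made up 1102 CPM of this sum. Of the 10 cardiac markers, 3, 10 and 9 lay above all 6 mesenteric libraries in PAC replicates 1, 2 and 4. Smooth muscle markers summed to 23659, 20764 and 3478 CPM in PAC replicates 1, 2 and 4, against 11599 to 41116 CPM, so replicate 4 lay below every mesenteric library. In bulk tissue, fewer cells of a type and less RNA per cell cannot be told apart.

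The first comparison was of the 2 arteries of control offspring, PAC over MAC. Msln, Upk3b, Lrrn4 and Upk1b were present in all 3 pulmonary libraries and at or near 0 in all 6 mesenteric ones, and their pooled levels (the counts of a group over its total counts) were 25.1 to 424 times as high in PAC as in MAC for the 3 genes with any count in MAC. Wt1 was present at overlapping low levels in both arteries, and Calb2 had at most 1 count in any library. In the mesenteric libraries, Wt1 was the member with more than a few counts in each. EdgeR called 0 members over all genes (0.014% of genes called, 0% higher in PAC), and DESeq2 called 4 (2.93% of genes called, 1.24% higher in PAC).

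Msln was at 54.7, 8.30 and 141 CPM in PAC replicates 1, 2 and 4. In MAH replicates 1, 2 and 3 it was at 0.486, 0.193 and 0.532 CPM, and in MAC replicates 1, 2 and 3 at 0.134, 0.363 and 0 CPM. The lowest pulmonary library held 128 counts of Msln, and the 6 mesenteric libraries together held 20. The groups did not overlap, and the pulmonary libraries spread widely among themselves.

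Upk3b was at 17.8, 3.37 and 3.90 CPM in PAC replicates 1, 2 and 4. Among the MAH libraries it had a single count, in replicate 1 (0.0809 CPM), and 0 counts in replicates 2 and 3, and it had 0 counts in all 3 MAC libraries. The groups did not overlap. Against a floor of 3 counts over the MAC group (0.0810 CPM), its pooled level was at least 91.7-fold higher in PAC. Floors and counting intervals cover counting error only.

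Lrrn4 was at 13.4, 2.98 and 3.04 CPM in PAC replicates 1, 2 and 4. MAH replicates 1, 2 and 3 held 0.162, 0.289 and 0 CPM, and MAC replicates 1, 2 and 3 held 0, 0.0908 and 0 CPM. With 242 counts over PAC and 1 over MAC, the pooled ratio was 215, with an exact 95% counting interval of 38.2 to 8521. As for Upk3b, PAC replicate 1 was highest and replicates 2 and 4 lay close together.

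Upk1b was at 9.29, 2.40 and 3.77 CPM in PAC replicates 1, 2 and 4. In MAH replicates 1, 2 and 3 it was at 0.0809, 0.289 and 0.355 CPM, and in MAC replicates 1, 2 and 3 at 0, 0.272 and 0.359 CPM, so the lowest pulmonary library lay above all mesenteric ones. Its pooled counts, 198 over PAC and 7 over MAC, gave a ratio of 25.1 (95% counting interval 11.96 to 63.3). The corresponding ratio for Msln was 424 (195 to 1157). A list of 5 other genes of urothelium, the lining of the bladder, summed to 1.25, 0.389 and 4.10 CPM in PAC replicates 1, 2 and 4, against 0.272 to 1.30 CPM in the mesenteric libraries, so replicate 4 lay above them all. Upk2 had 0 counts in 8 of 9 libraries, and Upk3a had 17 counts in PAC replicate 4 and 0 in the other libraries. The part of urothelial genes in the uroplakin levels of replicate 4 was not tested.

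**Figure D1:**
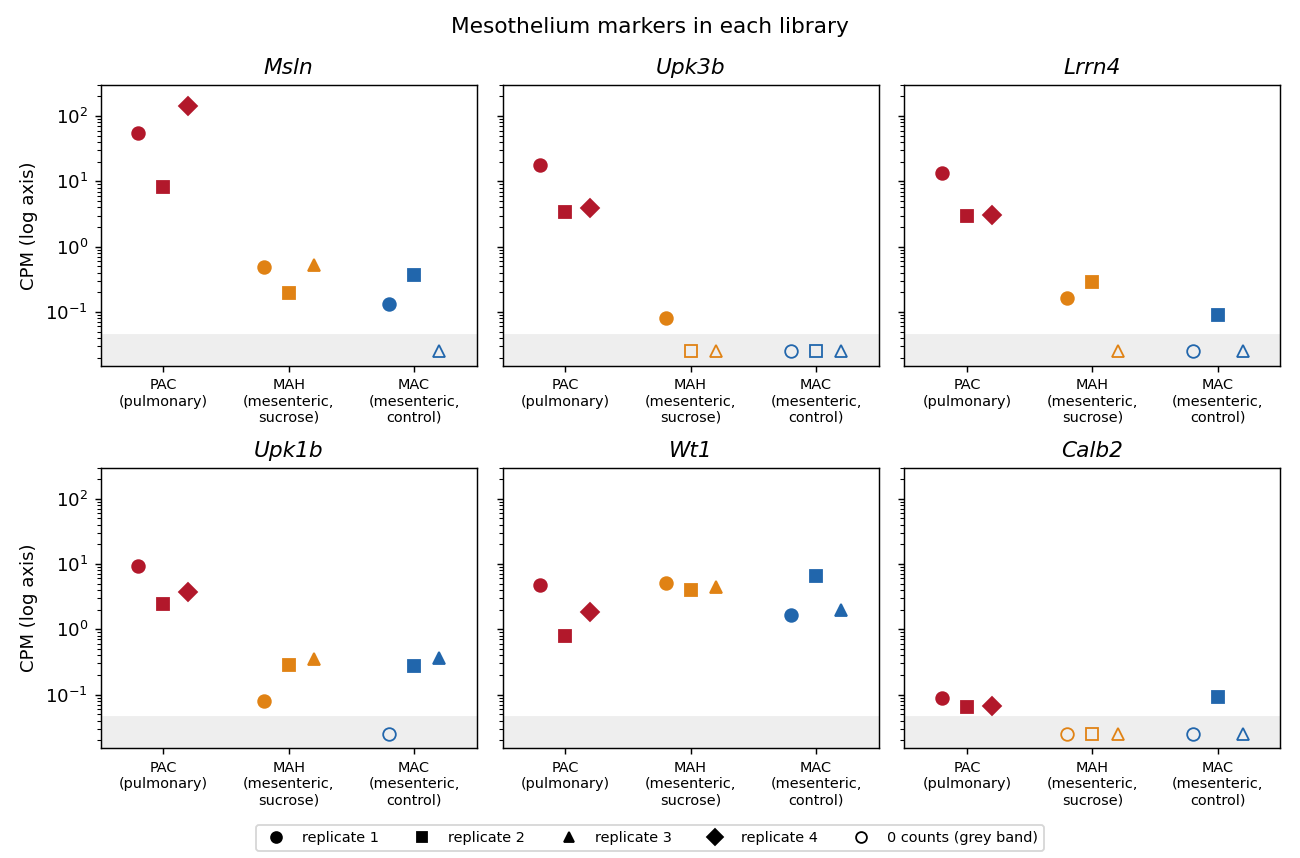
CPM of the 6 measured markers on a log axis, with a point per library, by group (PAC, pulmonary control; MAH, mesenteric high-sucrose; MAC, mesenteric control); open points in the grey band had 0 counts. Msln, Upk3b, Lrrn4 and Upk1b lie at 2.40 CPM or above in each PAC library and at 0.532 CPM or below in each mesenteric one, while Wt1 overlaps and Calb2 stays at 1 count or fewer.

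Between the arteries, Wt1 did not follow Msln, Upk3b, Lrrn4 and Upk1b. It was at 4.82, 0.778 and 1.85 CPM in PAC replicates 1, 2 and 4, at 5.18, 4.04 and 4.44 CPM in MAH replicates 1, 2 and 3, and at 1.68, 6.63 and 1.98 CPM in MAC replicates 1, 2 and 3. Its pooled ratio of PAC over MAC was 0.696 and had a 95% counting interval of 0.525 to 0.919, which leaves out the wider spread between libraries. The groups overlapped, and MAC replicate 2 was the highest of the 9 libraries. That library also had the highest summed level of adventitial fibroblast markers (14994 CPM, against 6004 to 7750 CPM in the other mesenteric libraries) and the lowest of smooth muscle markers among the mesenteric libraries (11599 CPM). Its sums of other mesothelial genes (508 CPM, of which Efemp1 was 250 CPM) and of lymphatic endothelial markers (1173 CPM) were also the highest of the 9 libraries. The part of any of these in the Wt1 level was not tested.

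Calb2 had 1 count in each of the 3 PAC libraries, 0 counts in all 3 MAH libraries and 1 count in the MAC group. Both arteries were at or under the floor of 3 counts over a group, so no fold is given, and a difference was not detectable at this depth. Calretinin is also found in neurons. The 8 nerve genes measured summed to 17.3, 38.5 and 51.8 CPM in PAC replicates 1, 2 and 4, against 15.4 to 70.6 CPM in the mesenteric libraries. Uchl1, a ubiquitin hydrolase of neurons, stood at 3.13, 12.4 and 6.88 CPM in PAC replicates 1, 2 and 4, against 22.5, 8.54 and 8.62 CPM in MAC replicates 1, 2 and 3. Stmn2, a neuronal microtubule protein, was at 12.1, 16.5 and 34.9 CPM in PAC, against 7.85, 53.4 and 0.449 CPM in MAC, in the same order of replicates. Snap25, of the synaptic fusion complex, was at 0.179, 2.72 and 2.45 CPM in PAC, against 0.268, 0.363 and 0.269 CPM in MAC. Dbh, which makes noradrenaline, was at 0.0893, 2.59 and 2.31 CPM in PAC, against 0.0671, 0.0908 and 0.269 CPM in MAC. Both were thus higher in PAC replicates 2 and 4 than in any mesenteric library, and PAC replicate 1 was not. These 2 were picked after their values were seen. Of the 8 nerve genes, 0, 3 and 2 lay above all 6 mesenteric libraries in PAC replicates 1, 2 and 4. Between PAC and MAC 3 were tested, 1 with a log2 fold change above 0 and 2 below. Tubb3, 1 of those below, averaged 3.08 CPM in PAC and 5.75 CPM in MAC, with overlapping groups.

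The edgeR fit held 14315 genes, 5 of them members. Calb2 did not pass the filter on low counts, and the other 4 low members passed it only through their PAC libraries, so their count past any threshold is a description. At an unadjusted p under 0.05 there were 4 members, all higher in PAC. Over all genes, 8.53% were under it, 4.23% higher and 4.3% lower in PAC. Non-overlap with a higher PAC group held for 4 members and for 6.19% of all genes, and with a lower PAC group for 0 members and 6.71%. Lrrn4 had a log2 fold change of 7.40 ± 1.20 (SE, n = 3 per group) with an edgeR adjusted p of 0.159, and Msln one of 8.62 ± 1.40, also at 0.159. Upk1b had 4.57 ± 1.06 with an edgeR adjusted p of 0.354. Upk3b had an edgeR adjusted p of 0.263, and its fitted fold change depends on the prior count, since MAC was at 0. Wt1 had a log2 fold change of −0.50 ± 0.81 and an edgeR adjusted p of 0.868, and without MAC replicate 2 its log2 fold change was 0.36.

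Other tools and fits placed these genes on both sides of the threshold. The members DESeq2 called were Msln (adjusted p = 4.37e-11), Upk3b (3.92e-07), Lrrn4 (1.92e-05) and Upk1b (0.000319). Limma-voom with quality weights called 0.231% of genes (0.0838% higher), among them Upk3b (adjusted p = 0.0401) and Lrrn4 (0.0433). With all 9 libraries in a single edgeR fit, 0.286% of genes passed (0.0559% higher), and Msln was the member among them (adjusted p = 0.0382). Over 16 alternatives, the log2 fold change ran from 6.66 to 9.62 for Msln, from 6.42 to 9.39 for Lrrn4 and from 3.92 to 5.35 for Upk1b. For these genes and Upk3b every PAC library lay above every MAC library. A sign above 0 in each alternative was thus set by the counts beforehand and is no test.

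**Figure D2:**
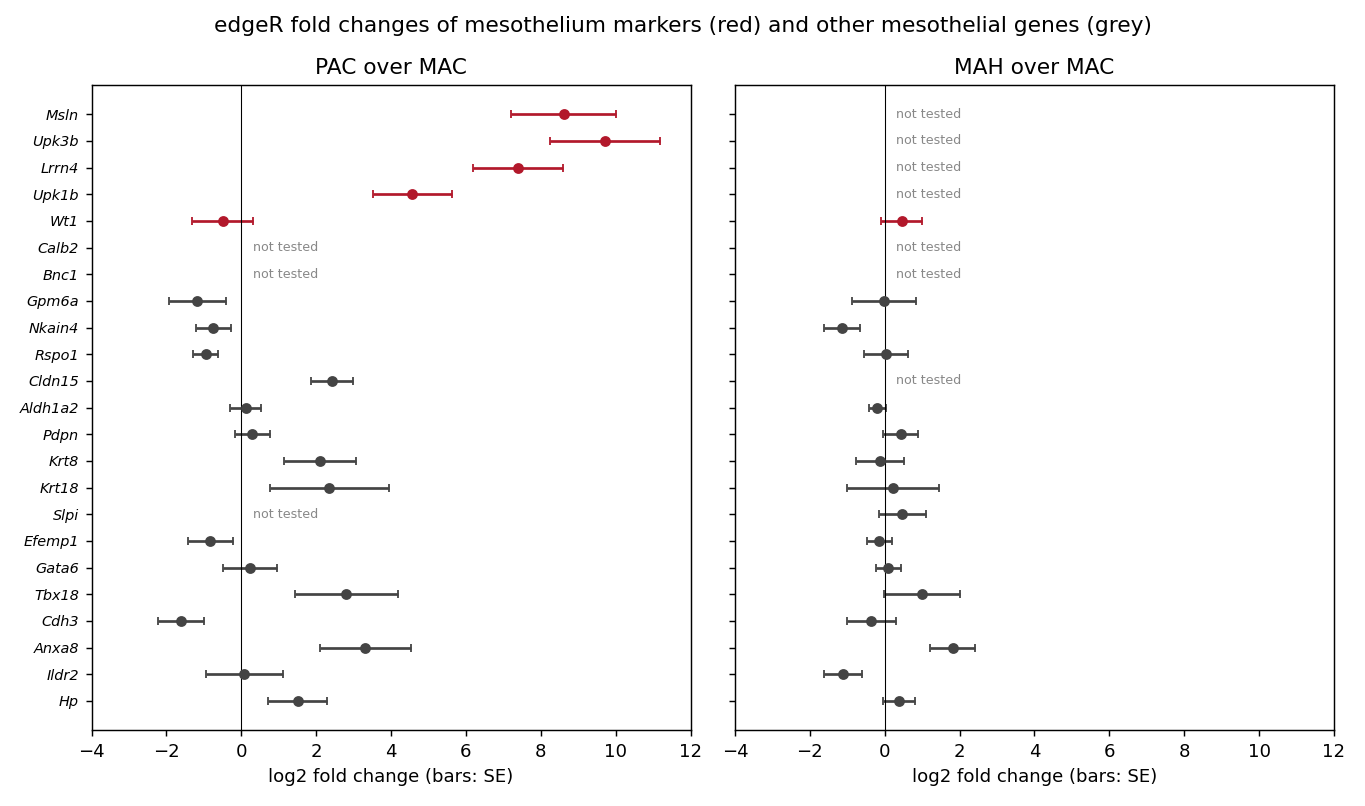
Log2 fold changes from edgeR with SE bars (n = 3 libraries per group) for the measured markers (red) and 17 other mesothelial genes (grey), for PAC over MAC on the left and MAH over MAC on the right. On the left Msln, Upk3b, Lrrn4 and Upk1b lie at 4.57 or above while the grey genes lie between −1.61 and 3.31, and genes that failed the filter on low counts are marked as not tested.

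The pulmonary libraries differed from each other in which of these genes was high. Relative to PAC replicate 1, Upk3b stood at 0.190 in replicate 2 and 0.220 in replicate 4, Lrrn4 at 0.223 and 0.227, and Upk1b at 0.258 and 0.406. Msln stood at 0.152 in replicate 2 but at 2.57 in replicate 4. Upk3b, Lrrn4 and Upk1b thus had their highest level in replicate 1, and Msln in replicate 4. Wt1 stood at 0.161 in replicate 2 and 0.384 in replicate 4, so among the pulmonary libraries it too was highest in replicate 1.

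The ratio of Msln to Upk3b counts within a library, in which depth cancels, was 3.08 in PAC replicate 1 (95% counting interval 2.62 to 3.63), 2.46 in replicate 2 (1.77 to 3.47) and 36.1 in replicate 4 (27.9 to 47.5). The intervals of replicates 1 and 2 overlapped, and that of replicate 4 lay above both. For Lrrn4 over Upk3b the ratios were 0.754 (0.606 to 0.936), 0.885 (0.582 to 1.34) and 0.780 (0.518 to 1.17) in PAC replicates 1, 2 and 4, with all 3 intervals overlapping. For Upk1b over Upk3b they were 0.523 (0.408 to 0.666), 0.712 (0.454 to 1.11) and 0.966 (0.659 to 1.42), in the same order of replicates. Between replicates 4 and 1, the ratio over Upk3b differed 11.7-fold for Msln (95% counting interval 8.59 to 16.2), 1.85-fold for Upk1b (1.17 to 2.92) and 1.03-fold for Lrrn4 (0.649 to 1.64). Msln and Upk1b thus differed from Upk3b beyond counting error between these libraries, and for Lrrn4 the interval held 1.

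PAC replicate 4 was also the highest of the 9 libraries for 10 of 10 lung epithelium markers and 8 of 9 general epithelial markers. Scgb1a1, the club cell secretoglobin, was at 0.179, 3.89 and 397 CPM in PAC replicates 1, 2 and 4, and Epcam, an adhesion molecule of epithelia, at 0.536, 1.56 and 60.1 CPM. Of the general list, Krt5, a keratin of basal cells, was at 0, 1.43 and 63.1 CPM. Lymphocyte markers summed to 16.4, 5.77 and 1415 CPM in the same order. The part of these tissues in the Msln level of replicate 4 was not tested.

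PAC replicate 1 had the lowest lung epithelium sum of the pulmonary libraries and the highest levels of Upk3b, Lrrn4 and Upk1b. Of 10 lung epithelium markers, 5 had 0 counts there, among them Sftpa1 and Sftpb, and none lay above all 6 mesenteric libraries. Others of the list were measured there, with Hopx at 9.56 CPM, Ager at 6.16 CPM and Napsa at 3.93 CPM. The general epithelium list summed to 10.2 CPM in replicate 1, against 4.29 to 8.32 CPM in the mesenteric libraries, and 7.24 CPM of it was Krt15, a keratin. Replicate 1 held 612 counts of Msln, 199 of Upk3b, 150 of Lrrn4 and 104 of Upk1b. Of the cardiac markers, Myh6, a cardiac myosin heavy chain, was at 2.86 CPM in replicate 1, against 2.69 to 9.43 CPM in the mesenteric libraries. Actc1, the cardiac actin, was at 1102 CPM in replicate 1, against at most 2.67 CPM in the mesenteric libraries. Without PAC replicate 4 in the fit, edgeR called 0.153% of genes (0.0555% higher) and 0 members, with adjusted p-values of 0.0717 for Lrrn4, 0.0943 for Msln, 0.165 for Upk3b and 0.186 for Upk1b. Without replicate 4 the log2 fold change of Msln was 7.45, and without replicate 1 those of Upk3b, Lrrn4 and Upk1b were 8.66, 6.42 and 3.92.

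**Figure D3:**
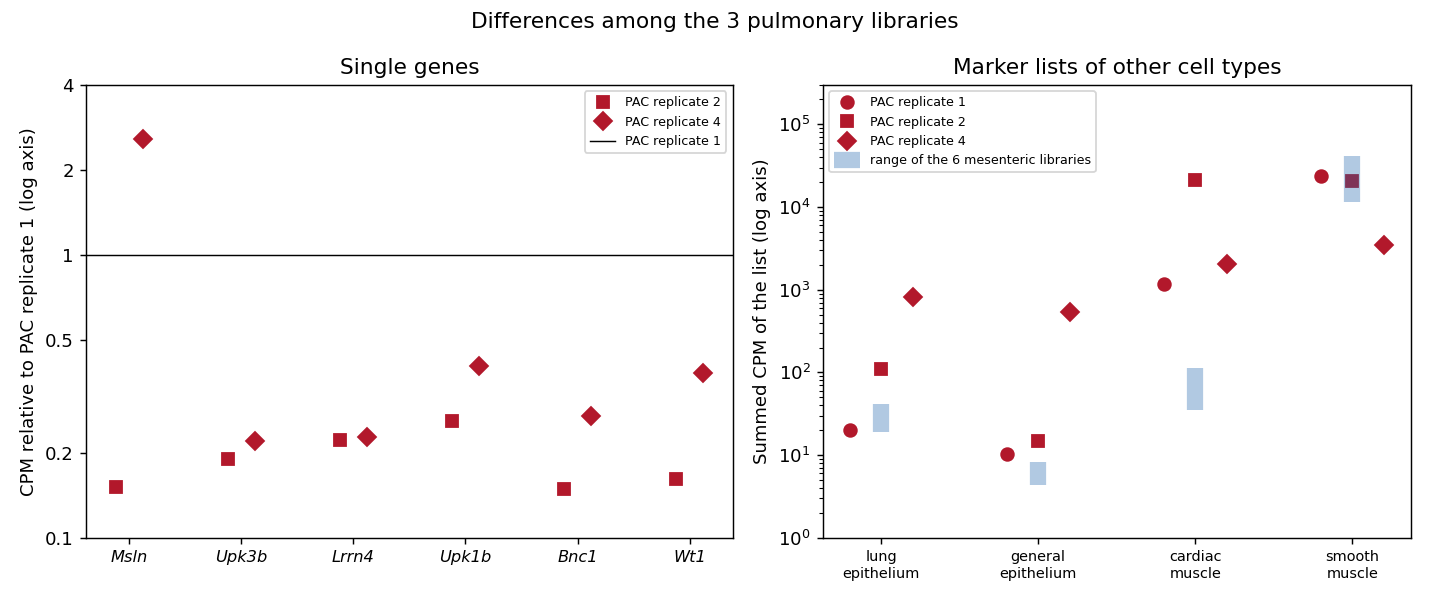
Left, CPM of single genes in PAC replicates 2 and 4 relative to PAC replicate 1 (line at 1, log axis); right, summed CPM of marker lists in each PAC library beside the range of the 6 mesenteric libraries (log axis). Of the 6 genes plotted, Msln is the one above 1 in replicate 4 (2.57), while Upk3b, Lrrn4, Upk1b, Bnc1 and Wt1 lie between 0.148 and 0.406, and the lung and general epithelium lists are highest in replicate 4.

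A list of 20 other genes of mesothelial cells had 17 with a row, and it did not follow the markers as a whole. Between PAC and MAC, 15 were tested, 10 with a log2 fold change above 0, where 54.5% of all genes had one, and 5 below. EdgeR called 0 in either direction, with 2 higher and 2 lower at an unadjusted p under 0.05, beside 4.23% and 4.3% of all genes. DESeq2 called 1, Cldn15, and limma-voom 0, beside 2.93% and 0.231% of all genes. The median log2 fold change was 0.24, beside 0.06 over all genes tested. Most of these genes were well above 0 in the mesenteric artery.

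Of the 8 with the highest mean level, Efemp1, a fibulin of the matrix, averaged 104 ± 81.4 CPM in PAC and 182 ± 59.9 CPM in MAC (SD, n = 3 each). Gata6, a transcription factor, averaged 85.2 ± 60.9 CPM in PAC and 73.1 ± 25.5 CPM in MAC. Aldh1a2, which makes retinoic acid, averaged 21.3 ± 11.3 CPM in PAC and 19.3 ± 3.74 CPM in MAC, and Pdpn, the surface glycoprotein podoplanin, averaged 17.7 ± 5.87 CPM in PAC and 14.6 ± 8.20 CPM in MAC. None of these 4 passed the test, and their groups overlapped.

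Gpm6a, a membrane glycoprotein also of neurons, averaged 10.4 ± 5.35 CPM in PAC and 23.6 ± 24.6 CPM in MAC, and Cdh3, P-cadherin, averaged 6.23 ± 1.69 CPM in PAC and 19.4 ± 13.7 CPM in MAC. Rspo1, a secreted enhancer of Wnt signalling, was at 8.04, 4.54 and 5.49 CPM in PAC replicates 1, 2 and 4, against 11.1, 11.4 and 11.9 CPM in MAC replicates 1, 2 and 3. Its groups did not overlap, with a log2 fold change of −0.95 ± 0.33 and an edgeR adjusted p of 0.525. Krt8, a keratin of simple epithelia, was at 20.1, 5.90 and 65.7 CPM in PAC replicates 1, 2 and 4, against 12.2, 2.09 and 6.91 CPM in MAC replicates 1, 2 and 3. Like Msln, Krt8 was highest in PAC replicate 4, at 3.27 times its level in replicate 1.

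Of the rest of this list, Bnc1, Cldn15 and Anxa8 were higher in all 3 PAC than in all 3 MAC libraries. Among genes tested, which leave out Bnc1, this held for 2 of the 15 of this list and for 6.19% of all. The groups did not overlap with PAC lower for 1 of the 15 and for 6.71% of all. Bnc1, Cldn15 and Anxa8 were picked after their values were seen. In MAH replicates 1, 2 and 3, Cldn15 was at 0.728, 0.866 and 2.48 CPM, and Anxa8 at 1.70, 5.97 and 2.22 CPM. Both thus overlapped the PAC libraries, while Bnc1 was at 0.0963 CPM or below in each MAH library. Bnc1, the zinc finger protein basonuclin, was at 3.93, 0.584 and 1.06 CPM in PAC replicates 1, 2 and 4, against 0.0671, 0 and 0.0898 CPM in MAC replicates 1, 2 and 3. It failed the filter, and its pooled ratio from 69 and 2 counts was 30.6 (95% counting interval 8.17 to 258). Its levels in replicates 2 and 4, relative to replicate 1, were 0.148 and 0.269, close to those of Upk3b. Cldn15, a tight junction claudin, was at 5.45, 1.88 and 3.11 CPM in PAC replicates 1, 2 and 4, against 0.469, 0.908 and 0.539 CPM in MAC replicates 1, 2 and 3, a log2 fold change of 2.41 ± 0.57 with an edgeR adjusted p of 0.358 and a DESeq2 adjusted p of 0.00986. Anxa8, an annexin, was at 1.34, 2.01 and 24.3 CPM in PAC replicates 1, 2 and 4, against 1.01, 1.18 and 0.629 CPM in MAC replicates 1, 2 and 3, a log2 fold change of 3.31 ± 1.21 with an edgeR adjusted p of 0.54.

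The genes most like the markers were found from profiles of log2(CPM + 0.5) over the 9 libraries, each centred on its own mean. Likeness was the root mean square difference from the mean profile of the 5 members with a mean of at least 0.5 CPM, and 12709 features with a symbol and a mean of at least 1 CPM were compared. On this scale Upk1b lay 0.29 log2 units from the mean profile, Lrrn4 0.37, Upk3b 0.48, Msln 1.51 and Wt1 1.76. The median over all features compared was 1.53. Each of these members is part of the mean profile, which shortens its distance. The distances of members thus cannot be set directly against those of other features. The measure is not scaled for the size of a change, so a larger change alone also puts a gene far from the mean profile.

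The nearest features were Gdpd2, a phosphodiesterase family member (0.41 log2 units), Fam167a (0.43), Six2, a homeobox transcription factor (0.45), Wfdc21 (0.49), Cgn, the tight junction protein cingulin (0.56), Baiap3 (0.57), Emb, the adhesion molecule embigin (0.60), and Reg3b, an antimicrobial lectin (0.62). With a pseudocount of 1 CPM, 7 of these 8 were retained. Six2 was at 10.7, 3.63 and 9.59 CPM in PAC replicates 1, 2 and 4, and at 0.486 CPM or below in each mesenteric library. Cgn was at 9.92, 1.75 and 14.02 CPM in PAC replicates 1, 2 and 4, with its highest level in replicate 4. Gdpd2 was at 5.00, 2.33 and 5.55 CPM in the same order, and at 0.324 CPM or below in each mesenteric library. Unlike Upk3b and Lrrn4, none of these 3 had a replicate 4 level near that of replicate 2. All 8 were chosen for their pattern, so no test is given.

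**Figure D4:**
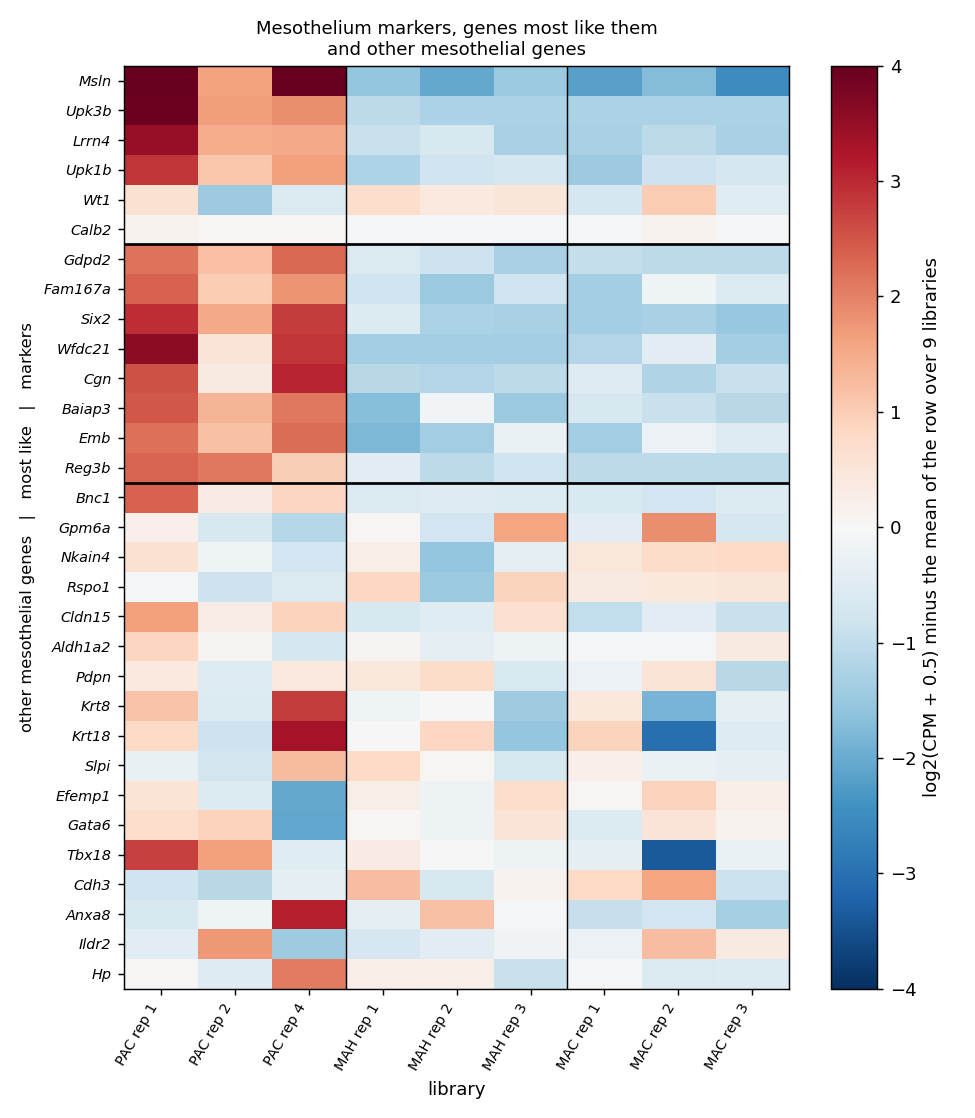
Log2(CPM + 0.5) of each gene minus its mean over the 9 libraries (colour scale ends at −4 and 4), with libraries as columns (PAC, MAH, MAC) and genes as rows: the 6 measured markers, the 8 genes most like them and 17 other mesothelial genes. The upper 4 rows and the middle block are high in the PAC columns, Wt1 and most of the lower block are not, and Krt8, Krt18 and Anxa8 are highest in PAC replicate 4.

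The second comparison asked whether prenatal sucrose changed these genes in the mesenteric artery. Msln, Upk3b, Lrrn4, Upk1b and Calb2 were at or near 0 in both groups, and Wt1 did not pass the test. Over MAH and MAC, Msln had 14 and 6 counts, a pooled ratio of 2.54 (95% counting interval 0.918 to 8.07), and Upk1b had 8 and 7 counts, a ratio of 1.25 (0.394 to 4.03). Lrrn4 had 5 and 1 counts, a ratio of 5.45 (0.609 to 258). These 3 intervals held 1, so for these genes a difference was not detectable at this depth, and Upk3b and Calb2 were at or under the floor in both groups.

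Wt1 was the member tested, and it averaged 4.55 ± 0.58 CPM in MAH and 3.43 ± 2.78 CPM in MAC (SD, n = 3 each). Its pooled ratio was 1.42, with a 95% counting interval of 1.11 to 1.81 that does not cover the spread between libraries. All 3 MAH libraries lay above MAC replicates 1 and 3 and below MAC replicate 2. The log2 fold change was 0.45 ± 0.55 (SE) with an edgeR adjusted p of 1, and without MAC replicate 2 it was 1.31 with an adjusted p of 0.851. Over 13995 genes, edgeR called 0% and DESeq2 0.0214%, with 1.99% at an unadjusted p under 0.05 in edgeR (0.865% higher, 1.13% lower). Groups did not overlap for 1.89% of genes higher in MAH and 3.74% lower, and for 0 members. Of the members 0 were called by edgeR, DESeq2 or limma-voom, and 0 were at an unadjusted p under 0.05 in edgeR. This comparison shares the MAC libraries with the first.

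Among the other mesothelial genes, 15 were tested between MAH and MAC, 8 with a log2 fold change above 0, where 50.3% of all genes had one, and 7 below, with a median of 0.03, beside 0.00 over all genes. EdgeR, DESeq2 and limma-voom called 0 of them. At an unadjusted p under 0.05 in edgeR there were 1 higher and 1 lower, beside 0.865% and 1.13% of all genes. Gpm6a was at 14.4, 8.09 and 42.8 CPM in MAH replicates 1, 2 and 3, against 10.1, 52.0 and 8.62 CPM in MAC replicates 1, 2 and 3, so a single library was high in each group. Rspo1 was at 15.4, 2.70 and 16.3 CPM in MAH replicates 1, 2 and 3, against 11.1, 11.4 and 11.9 CPM in MAC replicates 1, 2 and 3.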

How the data were processed

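Libraries were made from oligo(dT)-enriched RNA of 9 artery samples, per the labels' protocols. The authors deposited a table of counts for each library, as whole numbers whose totals differ, with no normalization seen in the values. The submitters' processing notes name the build rn7. For aligner, counter, annotation and strand setting, the sources used here give nothing, so reads shared with overlapping or antisense genes could not be separated. Krt19 was not analysed here.

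From these counts, CPM were computed on the total of all counts in a library. The main test was edgeR's quasi-likelihood F test (edgeR 4.0.16, R 4.3.3) with TMM factors, filterByExpr and robust dispersion, on the 6 libraries of a comparison, with Benjamini-Hochberg adjustment over all genes tested and a threshold of 0.05. The standard error is the absolute log2 fold change over the root of F. Counting intervals are exact at 95%, and the floor was 3 counts over a group. Alternatives used DESeq2 1.42.0, limma 3.58.1, other factors, filters and subsets of libraries. The fits were also run on simulated counts in which every gene had the same dispersion. That run does not cover the wider spread between libraries seen here for markers such as Msln.

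The markers, the lists and the tests were chosen with earlier results of these data known. Named genes were all members, the 8 other mesothelial genes with the highest mean CPM plus any called, the first 2 genes of each other list plus any called, and the 8 genes most like the markers. Bnc1, Cldn15, Krt18, Anxa8 and further markers of other cell types fall outside this rule and were named after their values were seen. Libraries of a group differed by a chi-square per degree of freedom of 42.5 to 312, where counting error alone gives about 1.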

Additional observations from a re-analysis of the deposited data

How the results depend on the processing

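Between PAC and MAC, edgeR called 2 genes and 0 members. DESeq2 called 408 genes, 4 of them members, 1 other mesothelial gene and 11 genes of the lists of other cell types. With all 9 libraries in 1 fit there were 41 genes and 1 member, and with limma-voom 33 genes, 2 members and 1 gene of the other cell type lists. The newer quasi-likelihood method of edgeR called 9 genes and 0 members. With 1 library left out the count of genes ran from 0 to 22, 22 without PAC replicate 4 and 0 without each other library, and the count of members stayed at 0. With PAC replicate 1 as the only pulmonary library 0 genes passed, and that lone library was assumed to vary like the MAC libraries. Limma-voom and the newer method were chosen after seeing the data.

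The replicate block called 36 genes, 0 members and 1 gene of the other cell type lists between PAC and MAC. Only numbers 1 and 2 are shared there, with correlations of deviations from the group means of 0.184 and −0.168. Between MAH and MAC they were 0.203, −0.305 and 0.117 for replicates 1, 2 and 3, and the block called 0 genes. With so few libraries, these correlations cannot tell whether equal numbers pair the samples.

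Wt1 between PAC and MAC turned to a log2 fold change of 0.36 without MAC replicate 2 and of 0.40 with PAC replicate 1 as the only pulmonary library, both with no call, and its lowest value was −1.32, without PAC replicate 1. Between MAH and MAC, DESeq2 called 3 genes, none of them a member, and the other alternatives called 0. CPM on TMM-scaled totals moved no member's value beyond the SD of its group, and totals without mitochondrial counts moved 6 of 54. Where a group spreads widely this measure is lax. For Msln in PAC the SD was 67.2 CPM. Its level in PAC replicate 4 was 141 CPM, and 194 CPM without mitochondrial counts, which counted as not moved. Depth limits Calb2, and limits Msln, Upk3b, Lrrn4 and Upk1b within the mesenteric artery.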
